A study of Homo sapiens with 28 samples.

Results

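The combination of Palbociclib, an inhibitor of the cyclin-dependent kinases CDK4 and CDK6, and Telaglenestat, an inhibitor of glutaminase (the label's spelling, elsewhere Telaglenastat), was compared between tumors and cultures of HCT116 cells. HCT116 is a human colorectal carcinoma line, here carrying luciferase and GFP. The quantity described is a difference of differences for every gene: the log2 fold change of the combination against Control in xenograft tumors (in vivo) minus the same log2 fold change in cultures grown from tumors (ex vivo). It used 13 of the 28 RNA-seq libraries of the series: 3 Control tumors, 4 combination tumors, 3 Control cultures and 3 combination cultures. The deposited table lists 58278 genes, and the 14588 that passed a minimum of counts entered the tests.

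The tumors grew under the skin of male NOD SCID mice, which were 5 weeks old when injected with the cells and lack functional T and B lymphocytes. By the study's methods, mice were given vehicle, or Palbociclib at 100 mg/kg/day with Telaglenestat at 150 mg/kg/day, by gavage for 23 days. The cultures were started from tumors of these groups after enzymatic digestion and were then grown as independent lines without drug, so that the ex vivo groups differ in what the tumors of origin had received and not in what was in the medium. All 13 samples share the one parental line, no label ties a culture to one of the sequenced tumors, and p-values measure the spread between these samples.

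CDK4 and CDK6 with a D-type cyclin phosphorylate the retinoblastoma protein, which releases E2F transcription factors and the genes for S phase entry. Genes for mitosis follow later in the cycle and are commonly repressed in G1 through a promoter element called the cell cycle genes homology region. Glutaminase converts glutamine to glutamate, which feeds the tricarboxylic acid (TCA) cycle, amino acid synthesis and glutathione.

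Total gene counts were between 6741257 and 11376945 per library. The base composition of the libraries differed between the groups. The slope of log2 expression on the GC content of the transcripts, per SD of GC content, was 0.365 to 0.373 in the 3 Control tumors and -0.180 to -0.051 in the 4 combination tumors. In cultures it was 0.029, -0.187 and 0.065 in the Control cultures and -0.245 to -0.178 in the combination cultures, so that Control culture 2 stood apart from the other two Control cultures and near the combination cultures. The tests were therefore run as deposited and after a correction for GC content and transcript length fitted in each library (called corrected). Many single genes are given below as deposited only, and their corrected size is then not shown. Of the 107 genes named in the text with an adjusted p under 0.05 for the difference (edgeR), 78 were also under it corrected. The other 29 are pointed out where they are named. What set the slopes was not tested. In the lowest GC decile the median difference was 0.24 log2 as deposited and 0.0096 corrected, and in the highest decile it was -0.64 as deposited and -0.027 corrected.

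A xenograft also holds mouse cells, whose reads can in part align to human genes, and a step to remove them is not given in the sources used here. Levels are in CPM, counts scaled to the effective size of each library. The summed level of 15 fibroblast markers was 295 to 329 CPM in Control tumors, 182 to 223 CPM in combination tumors and 34.4 to 42.1 CPM in cultures, with DCN, LUM and THY1 at 0 in both tumor groups. The 11 skeletal muscle and adipocyte markers summed to 26.0 to 84.1 CPM in Control tumors, 1.52 to 26.3 CPM in combination tumors and 0.253 to 2.15 CPM in cultures. Macrophage and leukocyte markers summed to 15.9 to 20.9 CPM in Control tumors, 10.4 to 17.8 CPM in combination tumors and 0.510 to 3.49 CPM in cultures, and the red cell markers to at most 0.250 CPM. The 10 endothelial markers summed to 4.29 to 5.71 CPM in Control tumors and 2.54 to 5.00 CPM in combination tumors. In cultures they summed to 3.00 to 5.31 CPM, so that tumors and cultures overlapped. The 5 epithelial markers of HCT116 summed to 2222 to 2614 CPM in Control tumors, 2082 to 2387 CPM in combination tumors and 1206 to 1811 CPM in cultures. The part of host cells in the results was not tested. Of the 120 genes named in the text, 48 overlap an annotated gene on the other strand, and the strand setting of the counting is not given, so that reads of such pairs may not be told apart.

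The combination effect differed between tumors and cultures for 1864 genes. The effect, that is the log2 fold change, was higher in tumors for 1137 genes (7.79%) and lower in tumors for 727 genes (4.98%) at an adjusted p under 0.05, which is what "called" means throughout. Corrected, 441 genes (3.02%) were higher and 357 (2.45%) lower, and 562 genes were called in both ways with the same sign (327 higher, 235 lower). In tumors themselves the combination raised 3763 genes (25.8%) and lowered 3202 (21.9%), or 1783 (12.2%) and 1769 (12.1%) corrected. In cultures it raised 118 genes (0.809%) and lowered 373 (2.56%), and corrected only 14 (0.096%) rose and 9 (0.0617%) fell. Of the 1137 genes with a higher effect in tumors, 1096 were called in tumors and not in cultures, and of the 727 with a lower effect, 603 were, while 93 fell in both settings and fell further in tumors. In bulk samples, fewer cells of a type or cycle phase and less RNA per cell cannot be told apart. The split between higher and lower depended on the scaling: with DESeq2 size factors in the same test it was 650 higher against 889 lower.

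The number of calls also depended on single libraries. In cultures the 491 genes called became 1 without combination culture 1 or Control culture 1, 3 without Control culture 3 and 1402 without Control culture 2. They became 101 and 227 without combination cultures 2 and 3, and between 221 and 280 without a Control tumor, so that a statement below that a gene rose or fell in cultures holds for the full set of libraries. For the difference, without Control culture 2 the counts were 532 higher and 432 lower, and without combination culture 3 they were 597 and 347. The higher count was 742 and 663 without combination tumors 1 and 2, and 713 and 669 without Control tumors 1 and 3. The lower count was 414 and 425 without Control tumors 2 and 3. In a fit of all 28 libraries, whose spread between replicates enters the test, 327 were higher and 123 lower, and 0 genes were called in cultures by edgeR, where 1995 had an unadjusted p under 0.05. Of the 107 named genes called for the difference, 55 were not called there, namely LCN2, SIK1, TMEM79, ATP2A1, RCAN2, DUSP4, TUBA1B, MCM5, GLUD1, CARM1, PRMT1, E2F1, MCM7, MCM2, TK1, CYC1, COX7B, PFKL, TKT, IDH3G, GFPT1, MVD, FASN, SREBF1, DNAJB9, TIMP2, B2M, COL6A2, CDKN1A, E2F3, E2F2, DTYMK, TYMS, ALDH18A1, SLC1A4, SLC1A3, SLC1A5, SHMT1, SLC25A1, NDUFB3, MRPL47, MRPL50, MRPS17, MRPS23, RPL34, RPS23, NOP58, FBL, LSS, DHCR7, FADS1, ACSS2, KLK6, SERPINE2 and CDC45.

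**Figure D1:**
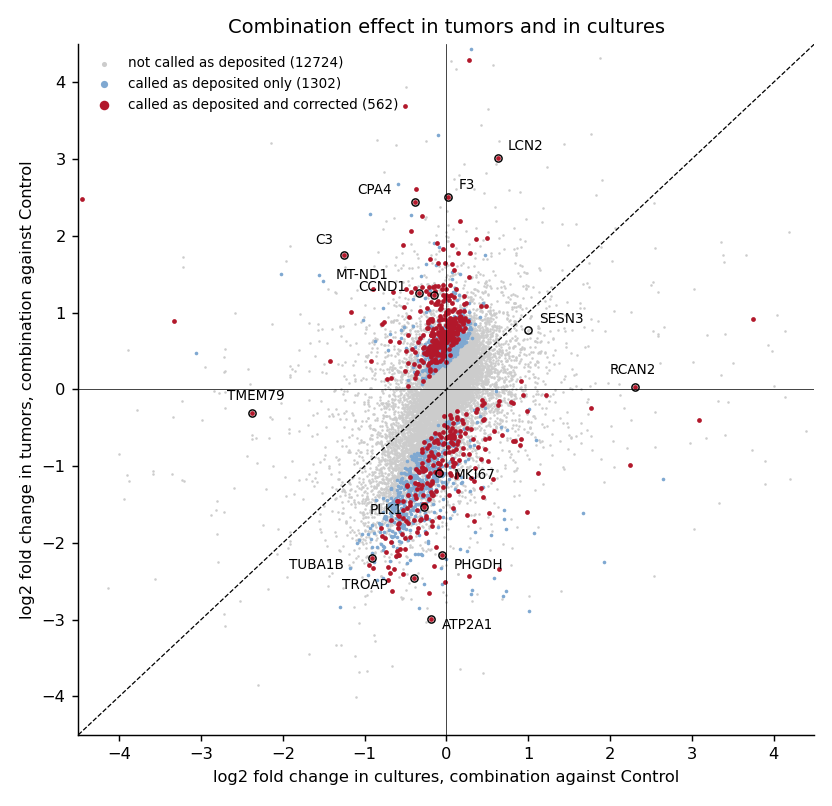
Each point is 1 of 14588 genes, with the log2 fold change of the combination in cultures on the x axis and in tumors on the y axis, and 66 genes lie beyond the axes at 4.5. The 562 red genes, called for the difference in both ways, stand off the dashed line of equal effects.

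Across genes the 2 effects had a Pearson r of 0.36 as deposited and 0.21 corrected, and a Spearman rho of 0.49 and 0.26. These describe genes that share libraries and the GC trend above, and genes are not independent replicates. The interquartile range of the log2 fold changes was 0.88 in tumors and 0.43 in cultures, or 0.53 and 0.32 corrected.

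Among genes called as deposited and corrected whose combination tumors, each relative to the Control tumor mean, all lay beyond the combination cultures relative to theirs, those with the largest positive differences included C3, NRP2, CPA4, F3, LCN2, SIK1 and TMEM79. F3 (tissue factor, which starts blood coagulation, at chr1:94529225-94541800 in GRCh38) had 70.2, 76.9 and 105 CPM in the Control tumors, 589.6, 440.1, 485 and 399 CPM in the combination tumors, 104, 152 and 108 CPM in the Control cultures and 117, 125 and 126 CPM in the combination cultures. All combination tumors lay above all other libraries, and the cultures overlapped. The fold change was 2.51 log2 in tumors and 0.017 in cultures, and the difference was 2.50 ± 0.22 (± gives the SE, adjusted p = 5.65e-06), corrected 2.23 (adjusted p = 1.01e-05). CPA4, a secreted carboxypeptidase, had 6.19, 6.55 and 9.41 CPM in the Control tumors, 32.9, 40.8, 43.3 and 43.048 CPM in the combination tumors, 27.8, 32.7 and 28.2 CPM in the Control cultures and 20.1, 26.9 and 20.8 CPM in the combination cultures. Control tumors lay below every culture and combination tumors above every culture. Its difference was 2.83 ± 0.23 (adjusted p = 3.04e-06).

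LCN2, a secreted protein that binds bacterial siderophores, had 2.52, 2.81 and 3.74 CPM in the Control tumors, 39.044, 17.6, 24.2 and 17.2 CPM in the combination tumors, 1.63, 2.03 and 2.24 CPM in the Control cultures and 5.45, 1.44 and 2.56 CPM in the combination cultures. It rose in tumors (3.02 log2, adjusted p = 5.46e-06), and its value in cultures was 0.64 (adjusted p = 0.486), with 1 combination culture above the other cultures. Its difference was 2.38 ± 0.59 (adjusted p = 0.0159), and its spread was wide in both combination groups. NRP2, a co-receptor for semaphorins and VEGF, had 1.47, 1.14 and 2.17 CPM in the Control tumors, 11.4, 8.82, 15.8 and 3.00 CPM in the combination tumors, 2.51, 1.01 and 2.38 CPM in the Control cultures and 1.65, 1.7982 and 1.02 CPM in the combination cultures, with a difference of 2.99 ± 0.72 (adjusted p = 0.0135). In 1 of its 4 combination tumors the level was near those of the Control groups. C3, the central complement component, had 7.97, 6.55 and 8.45 CPM in the Control tumors, 38.2, 17.5, 29.8 and 17.5 CPM in the combination tumors, 1.25, 0.634 and 1.12 CPM in the Control cultures and 0.886, 0.360 and 0 CPM in the combination cultures, and its difference was 3.00 ± 0.76 (adjusted p = 0.0167). Levels of C3 in cultures were at most 1.25 CPM. Its call was lost without Control culture 1 (adjusted p = 0.0532), and with limma voom neither C3 nor NRP2 was called. The kinase gene SIK1 and the membrane protein gene TMEM79 followed. Their differences were 2.18 ± 0.68 (adjusted p = 0.0426) and 2.07 ± 0.59 (adjusted p = 0.0299). TMEM79 fell in cultures (-2.37, adjusted p = 0.018) from 3.01, 2.92 and 2.80 CPM to 0.380, 0.719 and 0.511 CPM, and in tumors it was not called (-0.30, adjusted p = 0.534). SIK1 was called in neither setting alone and has a near-identical copy, SIK1B, so its counts are uncertain. The call for SIK1 was lost without combination culture 1, combination culture 2, Control culture 1, Control culture 2, combination tumor 2, combination tumor 3, combination tumor 4, Control tumor 1 and Control tumor 3 (adjusted p from 0.0546 to 0.107), and that for TMEM79 without combination culture 1, combination culture 3, Control culture 1, Control culture 2, combination tumor 2, Control tumor 1 and Control tumor 3 (adjusted p from 0.0527 to 0.0716).

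By the same rule the 8 largest negative differences were those of ATP2A1, NGFR, RCAN2, SYTL5, H1FX, CDKN2C, PHGDH and TROAP. PHGDH, the first enzyme of serine synthesis from glycolysis (chr1:119648411-119744226 in GRCh38), had 46.98, 52.3 and 46.9 CPM in the Control tumors, 13.7, 8.21, 9.46 and 12.6 CPM in the combination tumors, 70.955, 41.7 and 83.2 CPM in the Control cultures and 84.7, 41.6 and 63.6 CPM in the combination cultures. The combination tumors lay below every other library, and the culture groups overlapped. Its fold change was -2.15 log2 in tumors and -0.05 in cultures, with a difference of -2.10 ± 0.34 (adjusted p = 0.00127), corrected -1.79 (adjusted p = 0.00127). TROAP, a protein of the mitotic spindle, had 21.2, 28.4 and 25.1 CPM in the Control tumors, 3.79, 4.72, 4.59 and 4.95 CPM in the combination tumors, 28.6, 19.8 and 24.5 CPM in the Control cultures and 18.7, 17.1 and 19.8 CPM in the combination cultures, and a difference of -2.07 ± 0.23 (adjusted p = 5.61e-05). H1FX, a linker histone gene, had 13.9, 20.7 and 15.9 CPM in the Control tumors, 2.97, 4.72, 3.15 and 2.85 CPM in the combination tumors, 5.01, 3.55 and 4.89 CPM in the Control cultures and 4.43, 4.77 and 2.81 CPM in the combination cultures, and a difference of -2.14 ± 0.37 (adjusted p = 0.00218). Its combination tumors overlapped the cultures, and the difference lay in the higher Control tumors. CDKN2C encodes p18INK4C, an inhibitor of CDK4 and CDK6. It had 6.61, 5.51 and 6.03 CPM in the Control tumors, 1.32, 3.96, 1.58 and 1.05 CPM in the combination tumors, 5.01, 3.17 and 3.92 CPM in the Control cultures and 5.45, 8.27 and 3.45 CPM in the combination cultures, with a difference of -2.12 ± 0.56 (adjusted p = 0.0201). It fell in tumors (-1.61, adjusted p = 0.00266) and its call for the difference was lost without combination culture 2 (adjusted p = 0.0597) and Control culture 2 (adjusted p = 0.0506).

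NGFR, the low-affinity neurotrophin receptor, had 8.70, 8.22 and 7.36 CPM in the Control tumors and 1.15, 2.13, 0.717 and 1.65 CPM in the combination tumors, and its 6 cultures lay between 1.01 and 2.51 CPM. Its difference was -2.49 ± 0.57 (adjusted p = 0.0108). ATP2A1, the calcium pump of fast skeletal muscle, had 15.9, 7.08 and 9.77 CPM in Control tumors and 1.32, 1.67, 1.86 and 0.600 CPM in combination tumors, with 1.38, 2.41 and 2.52 CPM and 1.90, 1.62 and 2.04 CPM in the Control and combination cultures. Its difference of -2.80 ± 0.56 (adjusted p = 0.00561) went with the muscle and adipocyte marker sums above (26.0 to 84.1 CPM against 1.52 to 26.3 CPM in the tumor groups), whose part in it was not tested. RCAN2 and SYTL5, a calcineurin regulator and a protein of vesicle traffic, had differences of -2.27 ± 0.61 (adjusted p = 0.0226) and -2.22 ± 0.38 (adjusted p = 0.00191). RCAN2 rose in cultures (2.31, adjusted p = 0.0292) from 0.125, 0.507 and 0.140 CPM to 1.27, 1.26 and 1.53 CPM, and its value in tumors was 0.034 (adjusted p = 0.941). Levels of RCAN2 in cultures were at most 1.53 CPM, so that its difference rests on few counts there. Its call for the difference was lost without combination culture 3 (adjusted p = 0.0538) and Control culture 1 (adjusted p = 0.0581) and with limma voom. SYTL5 fell in tumors from 43.2, 47.8 and 51.041 CPM to 18.8, 24.6, 17.1 and 28.049 CPM, a fold change of -1.10 log2, and its cultures held 1.38, 0.888 and 0.699 CPM in Control and 2.41, 2.25 and 1.92 CPM in the combination, where the fold change of 1.13 was not called (adjusted p = 0.0787).

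A small group of genes moved the same way in both settings. Called in both with the same sign were 422 genes (81 rose and 341 fell), which is 6.06% of the tumor calls and 85.9% of the culture calls. Corrected there were 14 (10 rose and 4 fell), or 0.394% and 60.9%. The count rested on single libraries: as deposited it was 1 without combination culture 1 or Control culture 1, 2 without Control culture 3 and 1229 without Control culture 2. It was 77 and 195 without combination cultures 2 and 3, and 226, 231 and 183 without Control tumors 1, 2 and 3. Only 7 genes were called in opposite directions, 2 corrected.

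Of the 14 genes, those that rose in both settings by the largest amounts were SESN3, MAOB, BNIP3L, DUSP4 and FOXC1. SESN3, a stress-inducible regulator of mTORC1, had 18.8, 19.977 and 20.03 CPM in the Control tumors, 34.1, 27.7, 34.4 and 38.1 CPM in the combination tumors, 10.9, 10.02 and 8.67 CPM in the Control cultures and 22.2, 16.004 and 21.5 CPM in the combination cultures. Its fold changes were 0.78 and 1.00 log2, and the difference was -0.22 with a 95% interval of -0.64 to 0.20. BNIP3L, a receptor for mitophagy, had fold changes of 0.58 and 0.64 and a difference with an interval of -0.33 to 0.21. MAOB, a mitochondrial amine oxidase, had 0.88 and 0.59 with an interval of -0.03 to 0.60, and the transcription factor FOXC1 had 0.44 and 0.71 with -0.69 to 0.15. DUSP4, a phosphatase of the MAP kinase pathway, rose in both and rose further in tumors, with fold changes of 1.09 and 0.48 and a difference of 0.60 ± 0.15 (adjusted p = 0.017), a call lost without combination culture 3 (adjusted p = 0.0594) and Control tumor 3 (adjusted p = 0.0505).

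Those that fell in both were TUBA1B, MCM5, SELENOW and RPS26. TUBA1B, an alpha-tubulin, had 995, 1046 and 1003 CPM in the Control tumors, 238, 247, 195 and 205 CPM in the combination tumors, 1142, 661 and 985 CPM in the Control cultures and 407, 552 and 520.0 CPM in the combination cultures. The combination tumors lay lowest, and the combination cultures lay between the combination tumors and the Control cultures. MCM5, a subunit of the replicative helicase, had 66.7, 64.9 and 67.5 CPM in the Control tumors, 15.98, 20.993, 20.2 and 18.3 CPM in the combination tumors, 65.7, 42.7 and 68.5 CPM in the Control cultures and 32.4, 31.7 and 37.6 CPM in the combination cultures. Both fell further in tumors, with differences of -1.29 ± 0.21 (adjusted p = 0.00135) and -1.01 ± 0.21 (adjusted p = 0.00594). The selenoprotein SELENOW and the ribosomal protein gene RPS26 had differences that were not called, of -0.013 (interval -0.36 to 0.34) and -0.30 (-0.63 to 0.035). TUBA1B and RPS26 have close paralogs or pseudogenes, so that their counts are uncertain. For all 9 genes the corrected culture test had an adjusted p of 0.045, close to the threshold, and leaving out 1 library moved the corrected number of genes called in both settings between 0 and 53.

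Genes of mitosis fell in tumors and were mostly not called in cultures. All 31 members of the mitotic spindle and kinetochore list had a difference below 0, with a median of -0.63 (-0.77 corrected) beside a median of 0.056 (0.016 corrected) over all genes tested. Of these 31, 27 fell in tumors and 3 in cultures as deposited, beside 21.9% and 2.56% of all genes tested. Corrected, 31 fell in tumors and 0 in cultures, beside 12.1% and 0.0617%. For the difference, 15 were called lower as deposited and 22 corrected, with 0 higher, beside 4.98% and 2.45% of all genes tested. The G2/M list of 54 genes had a median of -0.59 (-0.74 corrected), with 22 lower as deposited and 33 corrected. Every combination tumor lay below every Control tumor for 36 of the 54, against 24.2% of all genes tested. The list, a set used for cell cycle scoring in the Seurat package, shares members with the spindle list.

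The promoters of 3 of these genes are shown because they carry the letters of the elements that mark mitotic genes. Each is the 200 bases before the RefSeq start (GRCh38.p14), written 5′ to 3′ in the direction of transcription, with matches to TTTGAA (the core of the cell cycle genes homology region) and to CCAAT, on both strands, in capitals. In MKI67 the second TTTGAA and an inverted CCAAT share a base.
CDC20 (chr1:43358781-43358980, plus strand): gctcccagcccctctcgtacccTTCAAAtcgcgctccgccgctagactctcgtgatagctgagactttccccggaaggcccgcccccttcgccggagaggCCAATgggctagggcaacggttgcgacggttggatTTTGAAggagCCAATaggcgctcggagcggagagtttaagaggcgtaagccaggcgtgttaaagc
PLK1 (chr16:23678689-23678888, plus strand): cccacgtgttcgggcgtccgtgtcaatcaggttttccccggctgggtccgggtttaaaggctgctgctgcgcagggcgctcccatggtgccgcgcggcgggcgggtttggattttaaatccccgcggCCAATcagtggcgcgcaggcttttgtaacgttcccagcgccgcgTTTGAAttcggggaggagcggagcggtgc
MKI67 (chr10:128126424-128126623, minus strand): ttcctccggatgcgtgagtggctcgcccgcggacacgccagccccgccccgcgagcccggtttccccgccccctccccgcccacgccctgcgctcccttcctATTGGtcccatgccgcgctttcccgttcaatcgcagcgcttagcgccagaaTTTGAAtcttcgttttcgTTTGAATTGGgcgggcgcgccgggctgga

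The TTTGAA nearest to the start began 65 bases before it in CDC20 and 29 bases before it in PLK1 and MKI67. Among genes with a single RefSeq start, TTTGAA was found in the 250 bases before the start of 12 of 23 (52.2%) of the spindle and kinetochore genes and 20 of 36 (55.6%) of the G2/M genes, against 555 of 7070 (7.85%) of the genes tested and 3102 of 22114 (14%) of all such promoters. CCAAT was found in 18 of 23 (78.3%), 25 of 36 (69.4%), 2573 of 7070 (36.4%) and 7393 of 22114 (33.4%). A match describes the letters only, and the lists overlap in part.

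PLK1, a kinase needed for mitotic entry and spindle assembly, had 76.6, 81.7 and 79.4 CPM in the Control tumors, 30.8, 31.6, 21.4 and 25.8 CPM in the combination tumors, 109, 94.5 and 104 CPM in the Control cultures and 77.2, 86.3 and 89.4 CPM in the combination cultures. The combination tumors lay below every other library, and the combination cultures below the Control cultures by a smaller step. Its difference was -1.25 ± 0.16 (adjusted p = 0.000152), corrected -0.91 (adjusted p = 0.00503). CDC20, the activator of the anaphase-promoting complex, had 113, 132 and 116 CPM in the Control tumors, 35.4, 37.9, 32.5 and 36.6 CPM in the combination tumors, 156, 115 and 154 CPM in the Control cultures and 78.005, 103 and 99.3 CPM in the combination cultures. It fell in both settings as deposited (-1.76, and -0.60 in cultures with an adjusted p of 0.0205) and fell further in tumors, with a difference of -1.16 ± 0.17 (adjusted p = 0.0006). AURKB, the kinase of the chromosomal passenger complex, had a difference of -1.51 ± 0.21 (adjusted p = 0.000454), and KIF2C, a microtubule depolymerase, one of -1.15 ± 0.19 (adjusted p = 0.00127). MKI67, which encodes the proliferation marker Ki-67, had 420.1, 506 and 449 CPM in the Control tumors, 281, 219.5, 177 and 182 CPM in the combination tumors, 780.0, 807 and 783 CPM in the Control cultures and 696, 812 and 726 CPM in the combination cultures. It fell in tumors (-1.09, adjusted p = 2.49e-06), and in cultures its value was -0.085 (adjusted p = 0.787), with a difference of -1.01 ± 0.18 (adjusted p = 0.00255). Control tumors already held less MKI67 than any culture.

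The S phase list, from the same package, of 43 genes had 34 differences below 0 and 9 above, and a median difference of -0.36 (-0.50 corrected), with 1 called higher and 14 lower as deposited, and 0 and 18 corrected. For this list and those below, the shares of all genes tested were 7.79% higher and 4.98% lower, and 3.02% and 2.45% corrected. The median difference over all genes tested was 0.056 (0.016 corrected). The helicase and origin licensing list (23 genes) had 2 higher and 6 lower, and 0 and 6 corrected, with a median of -0.24 (-0.40 corrected) and 7 differences above 0. MCM7, a helicase subunit, had 227, 247 and 244 CPM in the Control tumors, 90.6, 90.8, 73.8 and 82.046 CPM in the combination tumors, 353, 257 and 343 CPM in the Control cultures and 209, 218 and 274 CPM in the combination cultures, and a difference of -1.06 ± 0.17 (adjusted p = 0.00109). ORC1, the largest subunit of the origin recognition complex, had one of -1.21 ± 0.21 (adjusted p = 0.00206). MCM2 had -0.76 ± 0.15 (adjusted p = 0.006) and E2F1 -1.25 ± 0.29 (adjusted p = 0.0114), but corrected neither was called, at -0.35 (adjusted p = 0.212) and -0.65 (adjusted p = 0.199). E2F7, a repressor in the same family, was called in both ways, with -0.94 ± 0.19 (adjusted p = 0.00609) as deposited. Of 13 E cyclins and E2F factors, 2 (15.4%) were higher and 5 (38.5%) lower as deposited, and 0 higher and 3 (23.1%) lower corrected.

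An E2F site, searched as TTTGGCGC, TTTGCCGC, TTTCGCGC or TTTCCCGC on both strands, was found in the 250 bases before the start of 10 of 22 (45.5%) of the S phase genes and 5 of 15 (33.3%) of the helicase and licensing genes. It was found in 1 of 23 (4.35%) of the spindle and kinetochore genes, 331 of 7070 (4.68%) of the genes tested and 594 of 22114 (2.69%) of all single-start promoters. TTTGAA was found in 1 of 22 (4.55%) of the S phase genes.

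In the deoxynucleotide list, 4 of 11 genes were lower and 0 higher as deposited (5 and 0 corrected), with a median of -0.37 (-0.61 corrected). Beside these stand 4.98% lower and 7.79% higher of all genes tested, and 2.45% and 3.02% corrected. TK1, the thymidine kinase of S phase, had 80.014, 90.4 and 96.4 CPM in the Control tumors, 19.4, 23.9, 19.6 and 18.9 CPM in the combination tumors, 76.972, 49.6 and 91.7 CPM in the Control cultures and 36.7, 42.5 and 50.981 CPM in the combination cultures. All combination tumors lay below all other libraries, and its difference was -1.37 ± 0.24 (adjusted p = 0.00222), corrected -0.84 (adjusted p = 0.0106).

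**Figure D2:**
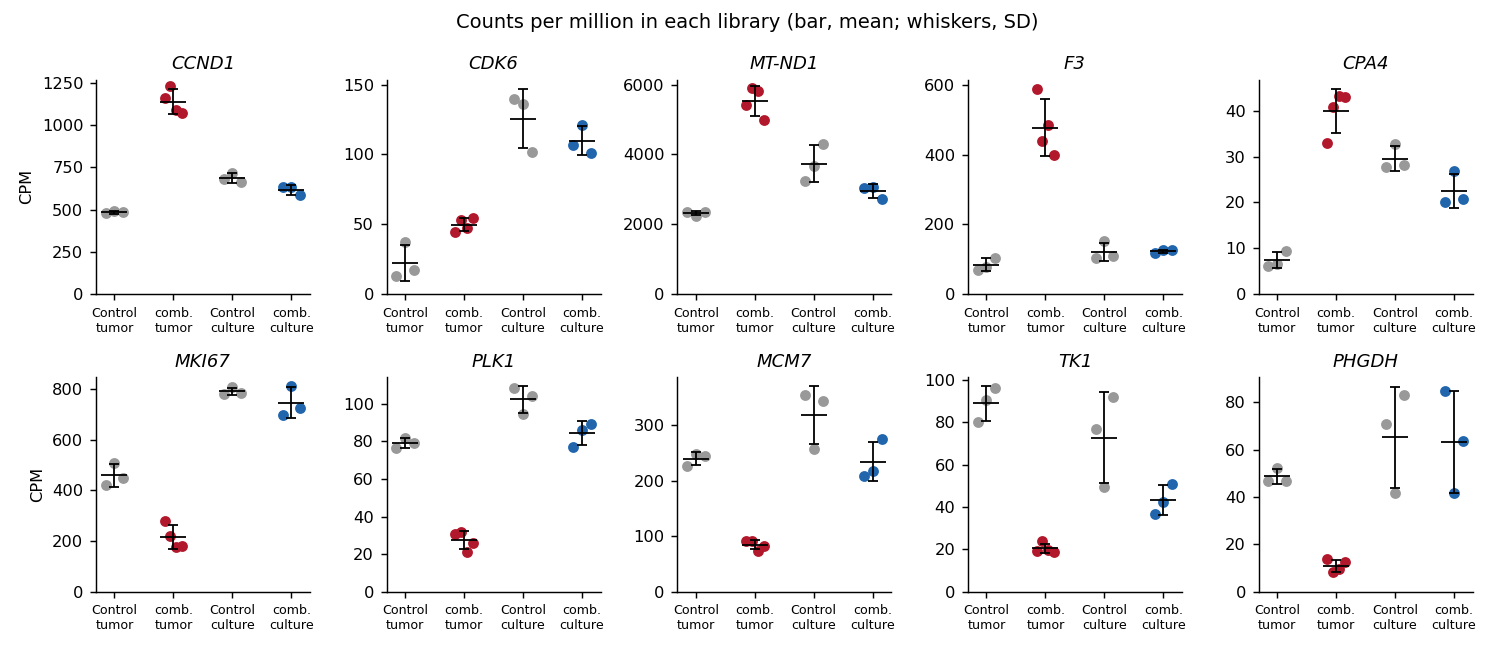
CPM of 10 genes in each of the 13 libraries (points), with the mean (bar) and SD (whiskers) of each group, where comb. is the combination. CCND1 is highest in the 4 combination tumors, where it reaches 1231 CPM, and MKI67, PLK1, MCM7, TK1 and PHGDH are lowest there.

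Of the genes for the kinases Palbociclib inhibits and their partners, CCND1 and CDK6 rose in tumors and were not called in cultures, and CDK4 fell in tumors. CCND1, which encodes cyclin D1, the partner of CDK4 and CDK6 (chr11:69641087-69654474 in GRCh38), had 477, 494 and 484 CPM in the Control tumors, 1162, 1231, 1089 and 1072 CPM in the combination tumors, 681, 716 and 661 CPM in the Control cultures and 631, 631 and 585 CPM in the combination cultures. The 4 combination tumors lay above all other libraries, with a fold change of 1.23 log2 in tumors and -0.16 in cultures (adjusted p = 0.275). The difference was 1.39 ± 0.11 (adjusted p = 2.06e-06), corrected 1.65 (adjusted p = 7.67e-06). CDK6 had 12.7, 37.2 and 17.4 CPM in the Control tumors, 44.3, 53.4, 47.1 and 54.3 CPM in the combination tumors, 139.7, 136 and 102 CPM in the Control cultures and 107, 121 and 101 CPM in the combination cultures. It rose in tumors and stayed below every culture, with a difference of 1.34 ± 0.32 (adjusted p = 0.0135). CDK4 fell in tumors (-0.39, adjusted p = 0.00173), and its difference of -0.10 was not called (interval -0.36 to 0.16), nor was that of RB1, the retinoblastoma gene (0.09, interval -0.20 to 0.38). In the list of D cyclins, their kinases, inhibitors and RB proteins, 14 genes in all, 2 (14.3%) were higher and 2 (14.3%) lower as deposited, and 3 (21.4%) higher and 3 (21.4%) lower corrected. The shares of all genes tested were 7.79% higher and 4.98% lower, and 3.02% and 2.45% corrected.

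Among the 16 genes of glutamate handling, 5 (31.2%) were higher and 1 (6.25%) lower as deposited, and 2 (12.5%) higher and 1 (6.25%) lower corrected, with a median of 0.033. GFPT1, which uses glutamine to start hexosamine synthesis, was higher, with 0.58 ± 0.12 (adjusted p = 0.00737), and GLUL, which makes glutamine from glutamate, was lower, with -0.45 ± 0.10 (adjusted p = 0.0115). GLUD1, glutamate dehydrogenase, had 0.47 ± 0.13 (adjusted p = 0.0274) as deposited and 0.21 (adjusted p = 0.263) corrected, and its call was also lost without combination culture 1, combination culture 3, Control culture 2, combination tumor 1, combination tumor 2, Control tumor 1 and Control tumor 3 (adjusted p from 0.0548 to 0.105). Of 18 amino acid transporters, 2 (11.1%) were higher and 2 (11.1%) lower as deposited, and 2 (11.1%) higher and 1 (5.56%) lower corrected, beside 7.79% higher and 4.98% lower of all genes tested, and 3.02% and 2.45% corrected. SLC7A6, an exchanger of cationic and neutral amino acids, was higher, with 0.88 ± 0.17 (adjusted p = 0.00515).

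MYC, whose protein drives growth genes and glutamine use, had 158, 186 and 189 CPM in the Control tumors, 232, 200.2, 172 and 171 CPM in the combination tumors, 185, 190.0 and 215 CPM in the Control cultures and 196, 165 and 192 CPM in the combination cultures. Its difference was 0.22 with an interval of -0.088 to 0.53 and was not called, and VEGFA, the vascular growth factor gene, had -0.22 (-0.57 to 0.13). PECAM1, an endothelial marker, had too few counts to be tested. PRMT1, the main arginine methyltransferase, had 151, 179 and 162 CPM in the Control tumors, 55.2, 59.9, 49.3 and 60.3 CPM in the combination tumors, 123, 83.5 and 125 CPM in the Control cultures and 70.7, 78.2 and 88.7 CPM in the combination cultures. It fell in tumors (-1.54, adjusted p = 1.21e-07), and its value in cultures was -0.48 (adjusted p = 0.0545). The difference was -1.06 ± 0.18 (adjusted p = 0.00202), corrected -0.72 (adjusted p = 0.00674). CARM1, a second enzyme of that family, had -0.89 ± 0.20 (adjusted p = 0.00936) as deposited but was not called corrected, at -0.38 (adjusted p = 0.198). Of 9 arginine methyltransferase genes tested, 1 (11.1%) was higher and 2 (22.2%) lower as deposited, and 0 higher and 1 (11.1%) lower corrected. Over all genes tested, 7.79% were higher and 4.98% lower, and 3.02% and 2.45% corrected. The median difference of the 9 was 0.064 (-0.085 corrected), with 5 differences above 0 and 4 below.

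All 13 transcripts encoded by the mitochondrial genome rose in tumors, as deposited and corrected, and none was called in cultures. Of all genes tested, 25.8% rose in tumors (12.2% corrected), and in cultures 0.809% rose and 2.56% fell. For the difference, 7.79% of all genes tested were higher, and 3.02% corrected. The median fold change of the 13 transcripts was 1.23 log2 in tumors and -0.065 in cultures. Their differences ran from 1.16 to 1.59, with all 13 called as deposited and corrected (median 0.98). Summed, they held 51371 to 53833 CPM in Control tumors, 110760.0 to 137390.0 CPM in combination tumors, 61292 to 81723 CPM in Control cultures and 63971 to 75730.0 CPM in combination cultures. MT-ND1, a subunit of complex I, had 2364, 2245 and 2349 CPM in the Control tumors, 5408, 5909, 5826 and 4986 CPM in the combination tumors, 3235, 3672 and 4299 CPM in the Control cultures and 3052, 3080.0 and 2734 CPM in the combination cultures, and the largest difference of the 13, 1.59 ± 0.14 (adjusted p = 4.62e-06). MT-ND2 and MT-ND3, of the same complex, had 1.55 ± 0.15 (adjusted p = 1.43e-05) and 1.46 ± 0.13 (adjusted p = 5.65e-06), and MT-CO2, of complex IV, 1.25 ± 0.13 (adjusted p = 2e-05). Nuclear copies of mitochondrial sequence can share their reads.

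Of 77 nuclear genes of the respiratory chain and ATP synthase, 12 (15.6%) were higher and 7 (9.09%) lower as deposited, and 3 (3.9%) higher and 5 (6.49%) lower corrected, beside 7.79% higher and 4.98% lower of all genes tested, and 3.02% and 2.45% corrected. Their median difference was 0.14 (-0.0081 corrected), and leaving out 1 library gave medians from 0.073 (without combination culture 1) to 0.17 (without combination culture 2). CYC1 and UQCRC1, both of complex III, were lower, with -1.30 ± 0.23 (adjusted p = 0.00269) and -1.21 ± 0.22 (adjusted p = 0.00269). COX7B, of complex IV, was higher, with 0.72 ± 0.14 (adjusted p = 0.00383). CYC1 had 94.7, 95.9 and 98.2 CPM in Control tumors and 22.2, 25.1, 25.2 and 24.7 CPM in combination tumors. Of 76 mitochondrial ribosomal protein genes, 13 (17.1%) were higher and 4 (5.26%) lower as deposited, and 1 (1.32%) higher and 0 lower corrected, and the share called lower was near that of all genes.

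In the list of glucose uptake, glycolysis and lactate (29 genes), 1 (3.45%) was higher and 11 (37.9%) lower as deposited, and 2 (6.9%) higher and 7 (24.1%) lower corrected, beside 7.79% higher and 4.98% lower of all genes tested, and 3.02% and 2.45% corrected. The median was -0.16, and leaving out 1 library gave medians from -0.26 (without Control culture 3) to -0.099 (without Control tumor 2). ALDOC, an aldolase, had 155, 194 and 171 CPM in the Control tumors, 70.8, 76.1, 70.9 and 66.1 CPM in the combination tumors, 12.9, 9.51 and 20.976 CPM in the Control cultures and 19.8, 20.7 and 16.9 CPM in the combination cultures. PFKFB4, which sets the level of the phosphofructokinase activator, had 81.1, 92.2 and 91.8 CPM in the Control tumors, 38.7, 38.8, 37.977 and 42.6 CPM in the combination tumors, 9.03, 6.22 and 6.15 CPM in the Control cultures and 8.86, 9.62 and 7.92 CPM in the combination cultures. In both genes Control tumors stood far above every culture and the combination tumors between them, with differences of -1.70 ± 0.24 (adjusted p = 0.000427) and -1.47 ± 0.19 (adjusted p = 0.00025). PFKL, liver-type phosphofructokinase, was lower, with -1.22 ± 0.21 (adjusted p = 0.00198), and SLC16A1, the lactate transporter MCT1, was higher, with 0.76 ± 0.12 (adjusted p = 0.00101).

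In the pentose phosphate pathway, TKT, transketolase, had 264, 277 and 269 CPM in the Control tumors, 103, 107, 91.3 and 93.7 CPM in the combination tumors, 202, 145 and 221 CPM in the Control cultures and 127, 114 and 134 CPM in the combination cultures. Its difference was -0.85 ± 0.16 (adjusted p = 0.00461), corrected -0.42 (adjusted p = 0.0436). The difference of TALDO1, transaldolase, was -0.42 and missed the threshold (adjusted p = 0.072). Of 10 genes of the pathway, 1 (10%) was higher and 2 (20%) lower as deposited, and 0 higher and 2 (20%) lower corrected, beside the shares of all genes just given.

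In the TCA list (25 genes), 0 were higher and 5 (20%) lower as deposited, and 0 higher and 4 (16%) lower corrected, beside 7.79% higher and 4.98% lower of all genes tested, and 3.02% and 2.45% corrected. PCK2, mitochondrial phosphoenolpyruvate carboxykinase, had 14.2, 11.7 and 12.9 CPM in the Control tumors, 3.29, 4.26, 4.16 and 4.80 CPM in the combination tumors, 19.4, 12.9 and 32.023 CPM in the Control cultures and 33.3, 16.4 and 27.3 CPM in the combination cultures, and a difference of -1.89 ± 0.40 (adjusted p = 0.00731). IDH2, the mitochondrial NADP-dependent isocitrate dehydrogenase, had -1.46 ± 0.29 (adjusted p = 0.00561), and IDH3G, a subunit of the NAD-dependent enzyme, -1.19 ± 0.23 (adjusted p = 0.0052). In the serine and folate list (17 genes), 0 were higher and 5 (29.4%) lower as deposited, and 0 higher and 5 (29.4%) lower corrected. Beside PHGDH these included SHMT2, which makes glycine and one-carbon units in mitochondria, with 129.7, 156 and 130.2 CPM in the Control tumors, 68.039, 71.8, 61.3 and 63.1 CPM in the combination tumors, 141, 116 and 139 CPM in the Control cultures and 122, 110.2 and 127 CPM in the combination cultures, and a difference of -0.93 ± 0.14 (adjusted p = 0.000749).

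In lipid synthesis no gene of either list was called higher. In cholesterol synthesis (24 genes), 0 were higher and 7 (29.2%) lower as deposited, and 0 higher and 2 (8.33%) lower corrected, beside 7.79% higher and 4.98% lower of all genes tested, and 3.02% and 2.45% corrected. The median was -0.25 (-0.23 corrected), and leaving out 1 library gave medians from -0.37 (without combination culture 1) to -0.082 (without combination culture 2). MVD, mevalonate diphosphate decarboxylase, had 17.2, 19.7 and 18.5 CPM in the Control tumors, 2.80, 4.26, 2.72 and 3.30 CPM in the combination tumors, 6.64, 4.82 and 7.41 CPM in the Control cultures and 3.80, 3.5963 and 4.09 CPM in the combination cultures, and a difference of -1.77 ± 0.32 (adjusted p = 0.0026), corrected -1.13 (adjusted p = 0.0239). SREBF2, the transcription factor of that pathway, had -0.86 ± 0.16 (adjusted p = 0.00419), and -0.47 (adjusted p = 0.0969) corrected. In fatty acid synthesis (16 genes), 0 were higher and 4 (25%) lower as deposited, and 0 higher and 1 (6.25%) lower corrected. FASN, fatty acid synthase, fell in both settings as deposited (-2.05 and -0.76), with a difference of -1.29 ± 0.19 (adjusted p = 0.0006), and its factor SREBF1 had -1.02 ± 0.23 (adjusted p = 0.0102). Corrected, neither FASN at -0.55 (adjusted p = 0.0636) nor SREBF1 at -0.34 (adjusted p = 0.233) was called.

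Of 38 genes of the unfolded protein response, folding and export in the endoplasmic reticulum, 18 (47.4%) were higher and 0 lower as deposited, and 6 (15.8%) higher and 0 lower corrected, beside 7.79% higher and 4.98% lower of all genes tested, and 3.02% and 2.45% corrected. Of the differences 7 lay below 0, with a median of 0.37 (0.27 corrected). HSPA5, the chaperone BiP, had 905, 1100.4 and 939 CPM in the Control tumors, 1733, 1902, 1703 and 1597 CPM in the combination tumors, 1285, 1399.7 and 1239 CPM in the Control cultures and 1399.7, 1462 and 1469.9 CPM in the combination cultures, and a difference of 0.68 ± 0.12 (adjusted p = 0.00285). Every combination tumor lay above every other library. DNAJB9, its co-chaperone, had 0.94 ± 0.17 (adjusted p = 0.003), SSR3, of the translocon-associated complex, 0.72 ± 0.13 (adjusted p = 0.00249), and SPCS3, of the signal peptidase, 0.65 ± 0.12 (adjusted p = 0.00272). NPC2, a lysosomal carrier of cholesterol, rose in tumors from 82.1, 88.1 and 83.9 CPM to 184, 199.7, 186 and 177 CPM and had a difference of 1.26 ± 0.12 (adjusted p = 1.26e-05). In its list of 37 lysosome, V-ATPase and autophagy genes, 7 (18.9%) were higher and 0 lower as deposited, and 3 (8.11%) higher and 0 lower corrected.

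Of 79 cytosolic ribosomal protein genes, 29 (36.7%) were higher and 12 (15.2%) lower as deposited, and 12 (15.2%) higher and 8 (10.1%) lower corrected, beside 7.79% higher and 4.98% lower of all genes tested, and 3.02% and 2.45% corrected. RPL26 and RPS24 were higher, with 0.83 ± 0.12 (adjusted p = 0.000624) and 0.76 ± 0.11 (adjusted p = 0.000643). Ribosomal protein genes have many processed pseudogenes, so that single members are uncertain. Of 32 genes of nucleolar ribosome assembly, 8 (25%) were higher and 1 (3.12%) lower as deposited, and 3 (9.38%) higher and 0 lower corrected. NIP7 and GNL3, both assembly factors, were higher, with 0.76 ± 0.14 (adjusted p = 0.00269) and 0.65 ± 0.14 (adjusted p = 0.00685).

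Kallikreins are secreted serine proteases. Of 8 tested genes of the list of LCN2, kallikreins and CALB1, which was chosen with earlier results of these data known and is not independent evidence of a direction, 4 (50%) were higher and 0 lower as deposited, and 5 (62.5%) higher and 0 lower corrected. Over all genes tested, 7.79% were higher and 4.98% lower, and 3.02% and 2.45% corrected. KLK7 had 44.8, 47.9 and 36.4 CPM in the Control tumors, 83.4, 110.0, 90.9 and 89.996 CPM in the combination tumors, 23.6, 20.5 and 18.9 CPM in the Control cultures and 17.2, 20.3 and 20.6 CPM in the combination cultures. KLK10 had 22.8, 22.5 and 18.8 CPM in the Control tumors, 43.8, 37.1, 34.967 and 38.5 CPM in the combination tumors, 11.9, 10.1 and 13.984 CPM in the Control cultures and 9.37, 4.86 and 6.90 CPM in the combination cultures. Both rose in tumors, and KLK10 fell in cultures as deposited (-0.79, adjusted p = 0.0442), with differences of 1.23 ± 0.19 (adjusted p = 0.000749) and 1.64 ± 0.26 (adjusted p = 0.00116). THBS1, the matrix protein thrombospondin, rose in tumors (0.88) and fell in cultures as deposited (-0.76, adjusted p = 0.0463), with a difference of 1.64 ± 0.28 (adjusted p = 0.00202). In its list of mesenchymal transition genes (31 tested), 3 (9.68%) were higher and 0 lower as deposited, and 1 (3.23%) higher and 0 lower corrected. Of 18 tested factors linked to senescence, 3 (16.7%) were higher and 1 (5.56%) lower as deposited, and 2 (11.1%) higher and 1 (5.56%) lower corrected. As deposited, the share of these factors called lower was near the 4.98% of all genes. TIMP2, an inhibitor of metalloproteinases, was higher, with 0.52 ± 0.11 (adjusted p = 0.00709), and LMNB1, a nuclear lamin that is lost in senescence, was lower, with -0.74 ± 0.17 (adjusted p = 0.0122).

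FTH1, the ferritin heavy chain, had a difference of 0.85 ± 0.13 (adjusted p = 0.00116). In its list of glutathione genes and NRF2 targets (26 tested), 6 (23.1%) were higher and 5 (19.2%) lower as deposited. Corrected, 4 (15.4%) were higher and 2 (7.69%) lower. Of 4 tested metallothioneins, which bind zinc and copper, 4 fell in tumors as deposited and 3 corrected, beside 21.9% and 12.1% of all genes tested. For the difference, 0 metallothioneins were higher and 2 (50%) lower as deposited, and 0 higher and 2 (50%) lower corrected. Among all genes tested 7.79% were higher and 4.98% lower, and 3.02% and 2.45% corrected. MT2A had 58.4, 65.964 and 56.1 CPM in the Control tumors, 18.3, 24.9, 26.9 and 22.6 CPM in the combination tumors, 31.1, 24.9 and 25.031 CPM in the Control cultures and 23.7, 26.5 and 21.6 CPM in the combination cultures. The differences were -1.20 ± 0.19 (adjusted p = 0.00127) for MT2A and -0.89 ± 0.12 (adjusted p = 0.000306) for MT1E, which are close paralogs. B2M, the light chain of MHC class I, had 0.53 ± 0.11 (adjusted p = 0.00644) but was not called corrected, at 0.32 (adjusted p = 0.0762). Of 33 interferon and antigen presentation genes tested, 1 (3.03%) was higher and 0 lower as deposited, and 3 (9.09%) higher and 0 lower corrected. The median difference of these 33 was -0.13 (0.064 corrected), with 15 differences above 0 and 18 below. COL6A2, a collagen gene of the fibroblast list, had -1.36 ± 0.21 (adjusted p = 0.000816) as deposited and -0.64 (adjusted p = 0.106) corrected, beside the lower fibroblast marker sums in combination tumors, whose part in it was not tested. Of the 10 fibroblast markers tested, 0 were higher and 2 (20%) lower as deposited, and 0 higher and 0 lower corrected.

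Further genes of these lists with small p were as follows, each with its difference as deposited. Of these 33 genes, 31 were called, 14 with a higher effect in tumors and 17 with a lower one, 11 of the 31 were also called corrected, and 20 lost the call when at least 1 library was left out. In the S phase and G2/M lists the effect was lower in tumors for WDR76 (-1.02, adjusted p = 0.00224), GTSE1 (-1.38, adjusted p = 0.000221), NCAPD2 (-1.04, adjusted p = 0.000347), a subunit of condensin, and CDC45 (-0.83, adjusted p = 0.00974), a part of the replicative helicase, and these 4 calls held corrected and without any one library. Among regulators it was lower for CDKN1A (-0.60, adjusted p = 0.0206), the CDK inhibitor p21, and for E2F2 (-1.12, adjusted p = 0.0191), and higher for E2F3 (0.47, adjusted p = 0.0175), and corrected none of the 3 was called. Of enzymes for deoxynucleotides it was lower for DTYMK (-1.06, adjusted p = 0.017) and TYMS (-0.53, adjusted p = 0.0272), and corrected TYMS was called. CDKN1A lost the call without combination culture 1, combination culture 3, Control culture 2 or Control tumor 3 (adjusted p from 0.0517 to 0.0549). E2F2 lost the call without combination culture 3 or Control tumor 2 (adjusted p from 0.05 to 0.0655), and E2F3 lost the call without Control culture 3, combination tumor 2 or Control tumor 3 (adjusted p from 0.0532 to 0.0573). DTYMK lost the call without combination culture 3 or Control tumor 3 (adjusted p from 0.0505 to 0.0584). TYMS lost the call without combination culture 2, combination culture 3, Control culture 3, Control tumor 1 or Control tumor 2 (adjusted p from 0.0524 to 0.0726).

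In metabolism, the effect was higher in tumors for ALDH18A1 (0.39, adjusted p = 0.0227), an enzyme of proline synthesis from glutamate, and for SLC1A3 (0.71, adjusted p = 0.0278), a carrier of glutamate and aspartate. It was lower for the neutral amino acid carriers SLC1A4 (-1.12, adjusted p = 0.0202) and SLC1A5 (-0.68, adjusted p = 0.0451), of which the latter takes up glutamine. It was lower for SHMT1 (-0.42, adjusted p = 0.042), the cytosolic counterpart of SHMT2, and for SLC25A1 (-0.85, adjusted p = 0.0276), the mitochondrial citrate carrier, and higher for RPE (0.52, adjusted p = 0.0147), an epimerase of the pentose phosphate pathway. Of the enzymes of sterol synthesis it was lower for LSS (-0.95, adjusted p = 0.0149) and DHCR7 (-0.84, adjusted p = 0.0171), and of those of fatty acids and acetyl-CoA for FADS1 (-0.57, adjusted p = 0.0174) and ACSS2 (-0.82, adjusted p = 0.0187). Corrected, SLC1A4 and ACSS2 were called and the other 9 were not. The calls of LSS and FADS1 held without any one library. ALDH18A1 lost the call without combination culture 1, Control culture 2, combination tumor 1, combination tumor 2, Control tumor 1 or Control tumor 3 (adjusted p from 0.0524 to 0.0826). SLC1A3 kept the call only without Control tumor 3, combination tumor 1, combination tumor 3, combination tumor 4, Control culture 3 or combination culture 2 (adjusted p from 0.0587 to 0.0862 without each of the other libraries). SLC1A4 lost the call without combination culture 3, Control culture 2 or Control tumor 2 (adjusted p from 0.0502 to 0.0655), and SLC1A5 kept the call only without Control culture 1, Control culture 3 or combination culture 2 (adjusted p from 0.0611 to 0.121 without each of the other libraries). SHMT1 kept the call only without combination tumor 1 or Control culture 1 (adjusted p from 0.0517 to 0.096 without each of the other libraries). SLC25A1 lost the call without combination culture 3, Control culture 2, Control tumor 2 or Control tumor 3 (adjusted p from 0.0551 to 0.0894), and RPE lost the call without Control culture 2 (adjusted p = 0.0591). DHCR7 lost the call without Control tumor 3 (adjusted p = 0.0538), and ACSS2 lost the call without combination culture 1, Control culture 2 or Control tumor 2 (adjusted p from 0.0512 to 0.0553).

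The effect was higher in tumors for NDUFB3 (0.80, adjusted p = 0.00628), a subunit of respiratory complex I, and for the mitochondrial ribosomal proteins MRPL47 (0.57, adjusted p = 0.0122), MRPL50 (0.67, adjusted p = 0.014), MRPS17 (0.83, adjusted p = 0.0159) and MRPS23 (0.70, adjusted p = 0.0169). It was higher for the cytosolic ribosomal proteins RPL34 (0.80, adjusted p = 0.00103) and RPS23 (0.73, adjusted p = 0.00125). For 2 proteins of the small nucleolar ribonucleoproteins that modify ribosomal RNA it went opposite ways, with NOP58 (0.51, adjusted p = 0.0136) and FBL (-0.57, adjusted p = 0.0159). It was higher for KLK6 (0.74, adjusted p = 0.0279), a kallikrein, and for the protease inhibitor SERPINE2 (0.39, adjusted p = 0.0405). The metallothioneins MT1X (-0.70, adjusted p = 0.308) and MT1F (-0.86, adjusted p = 0.596) were not called. Corrected, NDUFB3, RPL34, RPS23 and KLK6 were called and the others were not. MRPS17 lost the call without Control culture 2 (adjusted p = 0.0529), and MRPS23 lost the call without Control culture 2 or Control tumor 1 (adjusted p from 0.0503 to 0.0629). NOP58 lost the call without Control culture 2 (adjusted p = 0.0536), and FBL lost the call without combination culture 3 (adjusted p = 0.0532). KLK6 kept the call only without Control tumor 2, combination tumor 3, combination tumor 4, Control culture 2 or combination culture 1 (adjusted p from 0.0532 to 0.0884 without each of the other libraries). SERPINE2 kept the call only without Control tumor 3, combination tumor 3 or combination culture 1 (adjusted p from 0.0502 to 0.118 without each of the other libraries).

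Set beside the single drugs, the same difference of effects was computed for Palbociclib alone and Telaglenestat alone in the fit of all 28 libraries. The 3 comparisons share their Control tumors and Control cultures, so that their values are listed and their likeness is not tested. Of 15466 genes tested, 55 were higher (0.356%) and 160 lower (1.03%) for Palbociclib, 2417 (15.6%) and 2861 (18.5%) for Telaglenestat, and 327 and 123 for the combination. Corrected, the counts were 48 and 104, 190 and 400, and 207 and 192. For the mitotic list the median difference was -0.86 for Palbociclib, 0.29 for Telaglenestat and -0.66 for both (corrected -0.77, 0.079 and -0.77). For the mitochondrially encoded transcripts it was 0.59 for Palbociclib, 0.56 for Telaglenestat and 1.25 for both (corrected 0.60, 0.39 and 1.01). For the metallothioneins it was 0.14 for Palbociclib, -2.34 for Telaglenestat and -0.90 for both (corrected -0.12, -1.42 and -0.72).

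In that fit the difference for CCND1 was 1.02 under Palbociclib (adjusted p = 0.000167), 0.40 under Telaglenestat (adjusted p = 0.0176) and 1.36 under both (adjusted p = 7.32e-07). For F3 it was 1.73 under Palbociclib (adjusted p = 0.0085), 0.83 under Telaglenestat (adjusted p = 0.07) and 2.47 under both (adjusted p = 0.000413), and for MKI67 -1.04 under Palbociclib (adjusted p = 0.0057), 0.79 under Telaglenestat (adjusted p = 0.00437) and -1.03 under both (adjusted p = 0.00773). PHGDH had -0.23 under Palbociclib (adjusted p = 0.867), -2.04 under Telaglenestat (adjusted p = 0.00278) and -2.13 under both (adjusted p = 0.0256), and MT-ND1 0.89 under Palbociclib (adjusted p = 0.0654), 0.62 under Telaglenestat (adjusted p = 0.0553) and 1.57 under both (adjusted p = 0.00131).

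**Figure D3:**
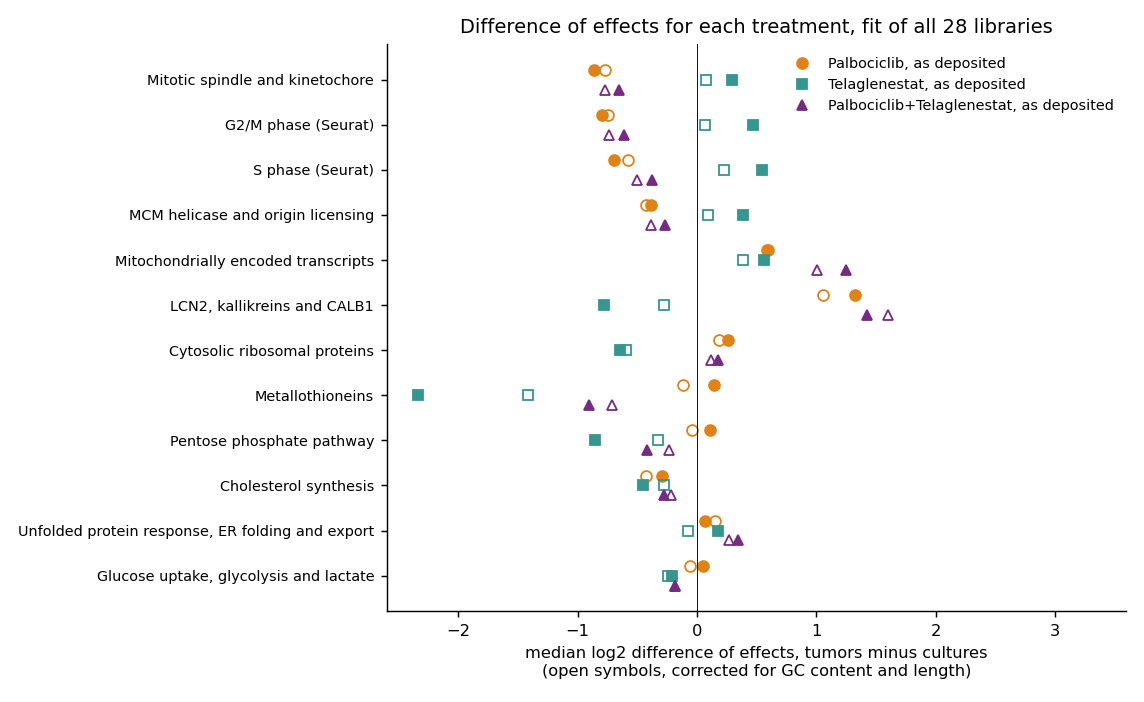
Median difference of effects, tumors minus cultures, over 12 gene lists for Palbociclib (circles), Telaglenestat (squares) and both (triangles), filled as deposited and open corrected. The cell cycle lists lie below 0 for Palbociclib and for both drugs and above 0 for Telaglenestat, with 0.29 as deposited and 0.079 corrected for the mitotic list.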

How the data were processed

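Human gene counts of 28 RNA-seq libraries were read as deposited. Per the labels and the study's methods, the authors extracted RNA with an integrity number above 8, prepared poly(A) libraries that mark strand, sequenced 60-base single-end reads, and made whole-number counts of reads per gene with CASAVA 1.8 and STAR (STAR version not given in the sources used here) on hg38. The annotation release and strand setting are not given there.

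The 13 libraries of 4 groups (group names as in the labels) were fitted together in edgeR 4.0.16 (R 4.3.3; filterByExpr with a minimum count of 10, TMM scaling, quasi-likelihood F-test, Benjamini-Hochberg adjustment over all 14588 genes tested), and the difference of effects was a contrast of the 4 group means. CPM values use the TMM-scaled library size. Of 58278 genes, 57940 matched GENCODE 29 for position, type, length and GC content. The correction removed from each library a natural spline (5 degrees of freedom each) on GC content and log2 length as an offset. Standard errors were derived from the F-test, as the absolute log2 fold change over the square root of F. The 95% intervals use these with a normal distribution. They do not use the degrees of freedom of the F-test and are narrower than intervals that would. Total counts of 6741257 to 11376945 set the precision, and low genes vary most.

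The members, gene lists and rules were chosen with earlier results of these data known. Genes named were up to 8 with the largest differences each way called as deposited and corrected with all combination tumors beyond the combination cultures, and up to 5 each way called in both settings. The genes of these rules were protein-coding, averaged 1 log2 CPM or more over the 13 libraries, and overlapped no gene on their own strand. Up to 4 genes per described list with the smallest p, and genes the study speaks of, were named without these limits. B2M, NPC2, FTH1, THBS1 and COL6A2 were taken from lists that are not among the 24 described. Some genes the rules gave are not reported here. Of the 87 reported that the list rule gave, 33 are given only briefly, a choice made after seeing the data and in part because 20 of them lost the call without one library. Alternatives were DESeq2 1.42.0, its size factors, limma 3.58.1 voom, other filters, the correction, all 28 libraries, separate fits, leaving out each library, and the replicate number as a block. No stated pairing goes with the replicate numbers. Same-numbered libraries had deviations correlated at -0.064, 0.078 and -0.027 in tumors and 0.0053, 0.13 and 0.043 in cultures. Libraries with unlike numbers had -0.096 to 0.075 in tumors and -0.114 to 0.063 in cultures. So few libraries cannot settle whether same-numbered ones belong together. The scripts were tested on simulated counts. Promoters came from RefSeq (GRCh38.p14), and motifs were counted in genes with a single start.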

Additional observations from a re-analysis of the deposited data

Results flagged for a closer look

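The combination effect differed between tumors and cultures by the edgeR test of the difference itself for 1137 genes with a higher effect in tumors and 727 with a lower one. Of the genes named, 48 had a higher effect in tumors. Their differences, in log2 units, began with 3.00 for C3, 2.99 for NRP2, 2.83 for CPA4, 2.50 for F3, 2.38 for LCN2, 2.18 for SIK1, 2.07 for TMEM79, 1.64 for KLK10 and 1.64 for THBS1. Next came 1.59 for MT-ND1, 1.55 for MT-ND2, 1.46 for MT-ND3, 1.39 for CCND1, 1.34 for CDK6, 1.26 for NPC2, 1.25 for MT-CO2, 1.23 for KLK7 and 0.94 for DNAJB9. These were followed by 0.88 for SLC7A6, 0.85 for FTH1, 0.83 for MRPS17, 0.83 for RPL26, 0.80 for NDUFB3, 0.80 for RPL34, 0.76 for SLC16A1, 0.76 for NIP7 and 0.76 for RPS24. Smaller positive values were 0.74 for KLK6, 0.73 for RPS23, 0.72 for SSR3, 0.72 for COX7B, 0.71 for SLC1A3, 0.70 for MRPS23, 0.68 for HSPA5, 0.67 for MRPL50 and 0.65 for GNL3. Then followed 0.65 for SPCS3, 0.60 for DUSP4, 0.58 for GFPT1, 0.57 for MRPL47, 0.53 for B2M, 0.52 for RPE, 0.52 for TIMP2, 0.51 for NOP58 and 0.47 for E2F3. The positive values nearest to 0 were 0.47 for GLUD1, 0.39 for SERPINE2 and 0.39 for ALDH18A1. 

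A lower effect in tumors was found for 59 of the genes named. The most negative differences were -2.80 for ATP2A1, -2.49 for NGFR, -2.27 for RCAN2, -2.22 for SYTL5, -2.14 for H1FX, -2.12 for CDKN2C, -2.10 for PHGDH, -2.07 for TROAP and -1.89 for PCK2. Below 0 by less were -1.77 for MVD, -1.70 for ALDOC, -1.51 for AURKB, -1.47 for PFKFB4, -1.46 for IDH2, -1.38 for GTSE1, -1.37 for TK1, -1.36 for COL6A2 and -1.30 for CYC1. Further values were -1.29 for FASN, -1.29 for TUBA1B, -1.25 for PLK1, -1.25 for E2F1, -1.22 for PFKL, -1.21 for UQCRC1, -1.21 for ORC1, -1.20 for MT2A and -1.19 for IDH3G. The list went on with -1.16 for CDC20, -1.15 for KIF2C, -1.12 for SLC1A4, -1.12 for E2F2, -1.06 for PRMT1, -1.06 for MCM7, -1.06 for DTYMK, -1.04 for NCAPD2 and -1.02 for SREBF1. Then came -1.02 for WDR76, -1.01 for MCM5, -1.01 for MKI67, -0.95 for LSS, -0.94 for E2F7, -0.93 for SHMT2, -0.89 for MT1E, -0.89 for CARM1 and -0.86 for SREBF2. After these stood -0.85 for SLC25A1, -0.85 for TKT, -0.84 for DHCR7, -0.83 for CDC45, -0.82 for ACSS2, -0.76 for MCM2, -0.74 for LMNB1, -0.68 for SLC1A5 and -0.60 for CDKN1A. The values nearest to 0 were -0.57 for FADS1, -0.57 for FBL, -0.53 for TYMS, -0.45 for GLUL and -0.42 for SHMT1. 

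Among the 4 combination tumors, 1 library stood far from the other three for 5 of the 120 genes named. The lone values were 4.59 log2 CPM for TK1 in replicate 2, 4.49 log2 CPM for CYC1 in replicate 1, 3.27 log2 CPM for IDH3G in replicate 1, 2.25 log2 CPM for E2F2 in replicate 4 and 5.83 log2 CPM for SLC1A3 in replicate 1. Chance alone puts about 1 in 20 groups past this limit.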

How the results depend on the processing

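No call of a named gene changed direction under any alternative run, and of the 107 named genes called, 45 kept the call in every alternative and every fit leaving out 1 library. The causes of the moves below were not tested. DESeq2 size factors gave 650 genes higher. The GC and length correction gave 441 higher and 357 lower, 3552 called in tumors, 23 in cultures, 14 in both with 1 sign and 2 with opposite signs. The fit of all 28 libraries gave 327 and 123, with 0 in cultures, 0 in both with 1 sign and 0 with opposite signs. With no filter on low counts there were 514 higher and 1385 lower, 832 in cultures and 27 with opposite signs. Separate fits of tumors and cultures gave 1485 lower, 3 in cultures, 1 in both with 1 sign and 0 with opposite signs. Their difference was tested with a normal distribution, without the degrees of freedom, which gives smaller p than a test that uses them. DESeq2's Wald test gave 855 in cultures, 699 in both with 1 sign and 13 with opposite signs, and limma voom 118, 106 and 1.

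The replicate block, a number the samples only share, gave 1259 higher and 908 lower, and lost the calls of SIK1, TMEM79, RCAN2 and SHMT1. Together with the correction it gave 401 and 288, 2938 in tumors, 7 in cultures, 4 in both with 1 sign and 1 with opposite signs, and 44 named genes lost the call.

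Median differences of lists moved by more than the spread between libraries as follows. The correction gave -0.61 for deoxynucleotide supply, 0.98 for mitochondrially encoded transcripts, -0.0081 for the nuclear respiratory chain, -0.30 for serine and folate genes and 0.27 for the endoplasmic reticulum list, and with the block as well -0.60, 1.01, -0.017, -0.28 and 0.27. With no filter the medians were 0.0018 for the nuclear respiratory chain, 0.083 for mitochondrial ribosomal proteins, -0.30 for glycolysis, -0.27 for the TCA cycle, -0.35 for serine and folate genes, -0.24 for glutamate handling, -0.71 for fatty acid synthesis, 0.23 for the endoplasmic reticulum list and 0.066 for cytosolic ribosomal proteins. The fit of all 28 libraries gave -0.080 for glutamate handling, separate fits 0.29 for the endoplasmic reticulum list, and a minimum of 10 counts in every library 1.21 for the kallikrein list and -0.057 for senescence factors.

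Leaving out 1 library gave from 532 (without Control culture 2) to 1201 genes higher and from 347 (combination culture 3) to 906 lower. It gave from 1 (combination culture 1, Control culture 1) to 1402 (Control culture 2) in cultures, 1 to 1229 in both with 1 sign and 0 to 12 with opposite signs, by the same libraries. Corrected, it gave from 221 (Control culture 2) to 463 higher, from 217 (combination culture 3) to 426 lower, 1 to 62 (Control culture 2) in cultures, 0 to 53 (Control culture 2) with 1 sign and 0 to 2 with opposite signs. Medians of lists ranged from -0.33 (Control culture 3) to -0.11 for amino acid transporters, from -0.075 (Control culture 3) to 0.095 for glutamate handling and from -0.18 (Control culture 3) to -0.027 for serine and folate genes. Corrected, they ranged from -0.00086 to 0.12 (combination tumor 3) for glutamate handling, from 1.26 (Control culture 3) to 1.66 for the kallikrein list and from -0.34 to -0.21 (combination culture 1) for serine and folate genes. Low genes such as C3 and RCAN2 rest on few counts in cultures.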
